A study of Mus musculus with 6 samples.

Results

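Ribosome biogenesis and small nucleolar ribonucleoprotein (snoRNP) factors are the proteins that transcribe, modify, cut and assemble ribosomal RNA in the nucleolus. They were taken by symbol from a list of 35 named genes, and all 35 were found among the 50599 genes of the table, 1 line each. The cells were RAW264.7, a mouse macrophage line, infected with a retrovirus carrying a ∆Raf-1:ER construct and selected with 70 µg/mL hygromycin B over 7 days. In this construct the oncoprotein is fused to an oestrogen receptor domain that 4-hydroxytamoxifen (4-OHT) switches on. One group was given 100 nM 4-OHT and the other ethanol vehicle, with 3 samples in each group, lettered A, B and C. Both groups were collected on day 3, after 24 hours without serum, and both carried the construct. The submitters call the 4-OHT cells senescent. As every sample carried the construct, an effect of the drug and one of the oncoprotein cannot be told apart. The labels do not say whether the samples were separate cultures, so the spread behind each p-value is that among these 6 libraries and may be technical.

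RNA polymerase I transcribes the long precursor of most ribosomal RNA. The small subunit processome folds and cuts its first part, box C/D snoRNPs methylate it, box H/ACA snoRNPs convert uridines to pseudouridine, and separate sets of factors finish the large and small subunits. The genes for these factors are known to follow growth signals and the transcription factor MYC, and ribosome production is a large cost for a dividing cell.

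With 4-OHT, 33 of the 35 genes fell and 2, Utp15 and Heatr1, did not pass the test. The median log2 fold change was -0.54, against -0.02 over all 11828 genes tested. Lower calls made up 32.5% of all genes tested and higher calls 33.0%, by limma on log2 of normalized count plus 1 with an adjusted p under 0.05. A normalized count is the authors' deposited value, in which reads are divided by 1 factor per library. In 32 of the 35 genes every 4-OHT value lay under every vehicle value, which was so in 35.7% of all genes tested. On the deposited scaling most falls were moderate. A ratio of 4-OHT to vehicle means between 0.6 and 0.8 was kept by 26 genes, while 5 lay under 0.6 and 4 over 0.8. They were not all alike, as the SD of the 35 log2 fold changes was 0.23, against a median standard error of 0.06. Only Dkc1 changed at least 2-fold on the deposited scaling. After scaling to equal library totals (total-count scaling) Rrp1b, Fbl, Polr1b, Nop10 and Wdr12 did too, at -1.19, -1.13, -1.13, -1.12 and -1.01.

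**Figure D1:**
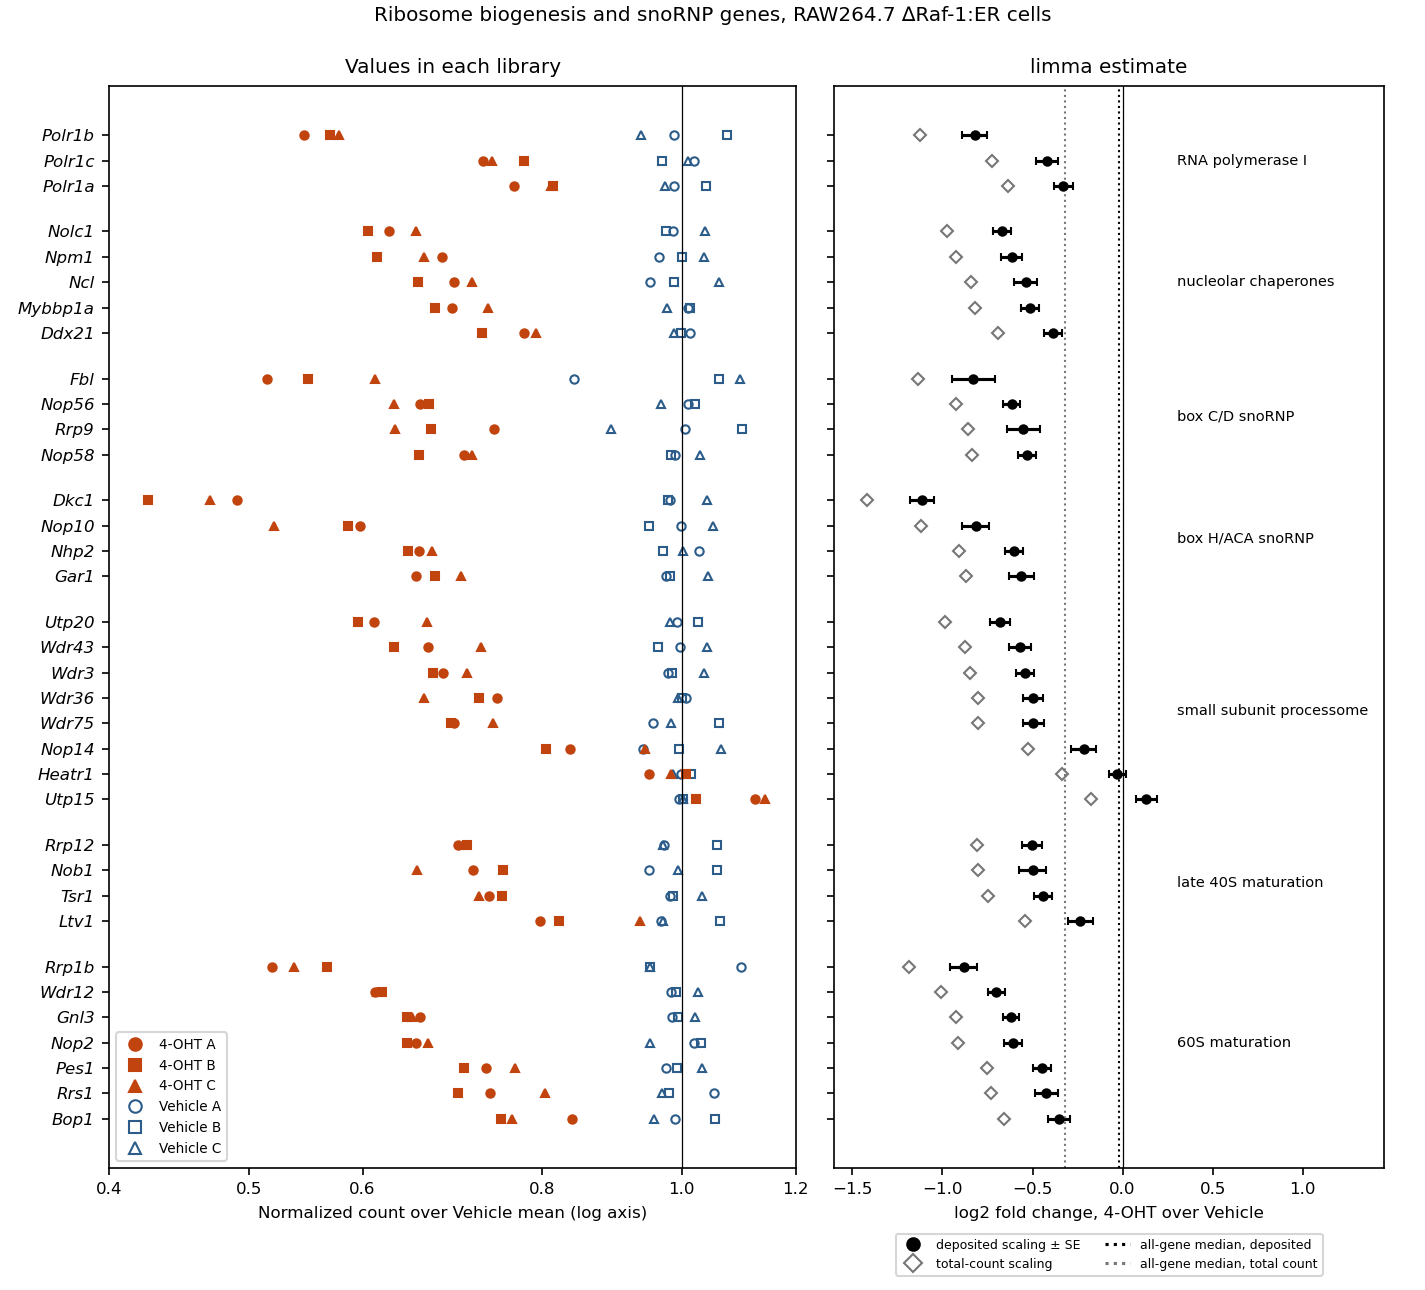
Each of the 35 genes in rows by role. Left, the normalized count of each library over the vehicle mean of that gene, on a log axis, with 4-OHT filled and vehicle open. Right, the limma log2 fold change with its standard error on the deposited scaling (black) and the estimate on total-count scaling (grey diamonds), with dotted lines at the all-gene medians of -0.02 and -0.32. Filled and open symbols are separate in all rows but Nop14 and Heatr1, and Utp15 is the one row with the filled symbols to the right.

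As a share of all reads, which does not depend on size factors, these genes took 0.368%, 0.337% and 0.356% with 4-OHT, against 0.623%, 0.615% and 0.635% with vehicle, each in the order A, B, C. The 4-OHT libraries were all lower, at 0.566 times the vehicle mean. A share and a normalized count give different sizes because the deposited totals were larger with 4-OHT. Scaling to equal totals moved the median of all genes by -0.30, and then all 35 genes were lower, with 55.4% of all genes lower. The median of the 35 genes lay 0.52 below the all-gene median under either scaling (-0.52 for both). This had to be so, as a common factor per library shifts most genes by nearly the same amount. It is therefore no check on the result. In bulk RNA, fewer transcripts per cell and a change in the mix of cells cannot be told apart.

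**Figure D2:**
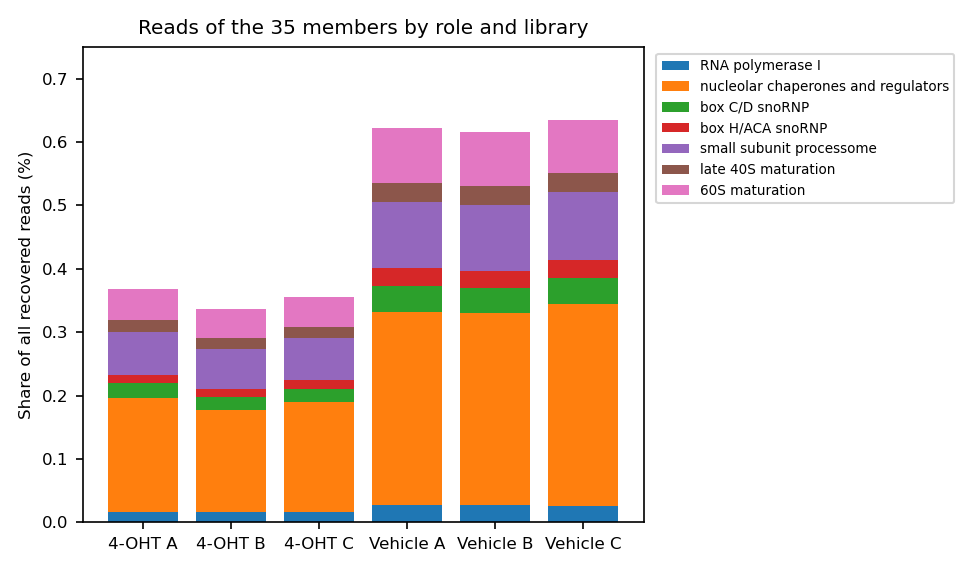
Share of all recovered reads, in percent, that fell in the 35 genes, stacked by role, for 3 libraries per group. The 4-OHT bars reach 0.337% to 0.368% and the vehicle bars 0.615% to 0.635%.

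Recovered depth was 11629150 to 15943722 reads per library, and the 35 genes had 111 to 19359 reads each in a library. The 10 macrophage markers summed to 6939 to 8232 CPM with 4-OHT and 10784 to 11160 CPM with vehicle, and each of the 10 had reads. Their sum was lower with 4-OHT, while single markers went both ways, with 5 lower and 5 higher by limma (median log2 fold change 0.11), and 5 lower, 3 higher and 2 not called after total-count scaling. Adgre1, a macrophage surface receptor, was lowest at -0.89, and the integrin gene Itgam highest at 2.21, with 2117 ± 73.9 normalized counts with 4-OHT and 458 ± 8.68 with vehicle (SD, n = 3 each). The 8 fibroblast markers summed to 0.165 to 0.605 CPM with 4-OHT and 0.188 to 0.592 CPM with vehicle, with Col3a1, Lum and Thy1 at 0. The 8 epithelial and endothelial markers summed to 4.30 to 6.13 CPM with 4-OHT and 0.172 to 0.627 CPM with vehicle, with Krt8, Krt18 and Krt14 at 0. The receptor gene Kdr and the cadherin gene Cdh5 were the 2 of these that passed the filter, and both were higher, Kdr with 30.6, 40.4 and 32.9 normalized counts with 4-OHT, against 0, 3.96 and 1.44 with vehicle. The part of these shifts in the results was not tested. The first principal component of all genes separated the groups and took 91.3% of the variance, and no library stood apart from its group on it.

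RNA polymerase I genes all fell. Polr1b, which encodes the second-largest subunit, had 331, 345 and 350.2 normalized counts in 4-OHT samples A, B and C, against 598, 652 and 567 in vehicle samples A, B and C. Values below keep this order of letters. The largest subunit, Polr1a, had 1492, 1589 and 1585 with 4-OHT, against 1928, 2030.4 and 1900.1 with vehicle. Polr1c, a subunit shared with RNA polymerase III, had 406, 433 and 411 with 4-OHT, against 568, 539.98 and 563 with vehicle. The groups did not overlap in any of these, and the log2 fold changes were -0.82, -0.33 and -0.42. Of 13 other polymerase I genes 5 were lower, 4 higher and 4 not called (median -0.07). After total-count scaling they were 9 lower, 2 higher and 2 not called. Their lowest was Polr1e, a further polymerase subunit, at -0.44, and their highest was Ttf1, a factor that ends ribosomal RNA transcription, at 0.74. Ttf1 had 359, 389 and 371 normalized counts with 4-OHT, against 215, 224 and 229 with vehicle, and stayed higher after total-count scaling at 0.44.

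The 5 nucleolar chaperones and regulators took 0.181%, 0.161% and 0.174% of all reads with 4-OHT, against 0.305%, 0.303% and 0.319% with vehicle, the largest share of any role. Npm1, nucleophosmin, a histone and ribosomal protein chaperone, had 7403, 6673 and 7193 normalized counts with 4-OHT, against 10470.3, 10866 and 11259 with vehicle. Ncl, nucleolin, which binds nascent ribosomal RNA, averaged 9047 ± 389 with 4-OHT and 13141 ± 744 with vehicle (SD, n = 3 each). Per length, Npm1 was the highest of the 35 genes, at 187 ± 14.3 RPKM (reads scaled to exon length and library total) with 4-OHT and 354 ± 11.5 RPKM with vehicle (SD, n = 3 each). Ncl had 62.4 ± 3.40 RPKM with 4-OHT and 112 ± 6.14 RPKM with vehicle. Falls in RPKM follow total-count scaling, and so are larger than those in normalized counts.

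Nolc1, a phosphoprotein that accompanies snoRNPs, fell most of this role on the log2 scale, at -0.67, with 1139, 1101 and 1190.1 normalized counts with 4-OHT, against 1795, 1775 and 1890.1 with vehicle. Ddx21, an RNA helicase of ribosomal RNA synthesis and processing, fell least at -0.39, with 3816, 3568 and 3889 with 4-OHT, against 4978, 4908 and 4854 with vehicle. Mybbp1a, a nucleolar MYB-binding protein, changed by -0.52. In all 5 genes the 4-OHT values were the lower ones in every library.

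The box C/D proteins also fell in all 4 cases. Fbl, fibrillarin, the methyltransferase of these particles, had 126, 134 and 149.6 normalized counts with 4-OHT, against 206, 259 and 268 with vehicle. Vehicle replicate A was the lowest of its group, and the standard error of Fbl was the largest among the 35 genes. Fbl (ENSMUSG00000046865.7, chromosome 7, 28169710 to 28179269, GRCm38/mm10) changed by -0.83 ± 0.12 on the log2 scale (SE, limma adjusted p = 8.27e-05). It was the least abundant member per length, at 2.28 ± 0.151 RPKM with 4-OHT and 5.04 ± 0.647 RPKM with vehicle (SD, n = 3 each). The exon length used for Fbl was 4209 bases, and its annotated transcripts include retained introns. Its rank per length therefore depends on the annotation. Before scaling to length, its mean normalized count was also the lowest of the 35 genes in both groups. How reads that fit several places were assigned is not given in the sources used here, so its level is uncertain.

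Nop56 and Nop58 form the core of the particle beside fibrillarin. Nop56 had 1049, 1064 and 1006 normalized counts with 4-OHT, against 1611, 1629.8 and 1543 with vehicle. Nop58 had 1642, 1530.3 and 1665 with 4-OHT, against 2303, 2287 and 2396 with vehicle. Rrp9, which belongs to the U3 particle that guides the first cuts, changed by -0.55. The 11 other snoRNP genes, which include the assembly factors, were lower in 9 cases and not called in 2, with a median of -0.46. Snu13, the protein that binds the kink-turn of box C/D RNAs, was lowest at -0.63, and Pih1d1 was nearest to no change at -0.07 (limma adjusted p = 0.451), though lower after total-count scaling at -0.38.

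The 4 core proteins of box H/ACA snoRNPs all fell, with a median of -0.71, the lowest median among the 7 roles. Dkc1 encodes dyskerin, the pseudouridine synthase of these particles and a component of telomerase (ENSMUSG00000031403.14, chromosome X, 75095854 to 75109777). It had 527, 457 and 504 normalized counts with 4-OHT, against 1052, 1048 and 1117 with vehicle. The lowest vehicle value was about 2 times the highest 4-OHT value. The log2 fold change was -1.11 ± 0.06 (SE, limma adjusted p = 5.78e-08), the lowest of the 35 genes. Within each sample, Dkc1 relative to the median gene of the 35 was 0.71 lower with 4-OHT on the log2 scale. This difference was -0.71 (exact two-sided permutation p = 0.1, the smallest that 3 against 3 samples allow), and -0.58 relative to their mean. Dkc1 was picked for the lowest change of the 35 in these same data, so the permutation p is no independent support for its place.

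Nhp2, an RNA-binding core protein, had 766, 751 and 781 normalized counts with 4-OHT, against 1198, 1130.4 and 1168 with vehicle. Gar1, which helps release the modified RNA, had 275, 284 and 296 with 4-OHT, against 411, 413 and 439.7 with vehicle. Nop10, a small protein that holds dyskerin and Nhp2 together, changed by -0.82. Per length, the Gar1 to Dkc1 ratio was 1.26, 1.496 and 1.41 with 4-OHT, against 0.939, 0.948 and 0.947 with vehicle. The ratio of Nhp2 to Dkc1 was 5.23, 5.92 and 5.57 with 4-OHT, against 4.09, 3.88 and 3.76 with vehicle. The ratio of Nop10 to Dkc1 was 2.17, 2.46 and 1.98 with 4-OHT, against 1.82, 1.74 and 1.81 with vehicle. These ratios, chosen after the values were seen, are free of library scaling, and the groups did not overlap in any. As Dkc1 fell most of the 35 genes, the mean log2 ratio of any other member to it had to rise.

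**Figure D3:**
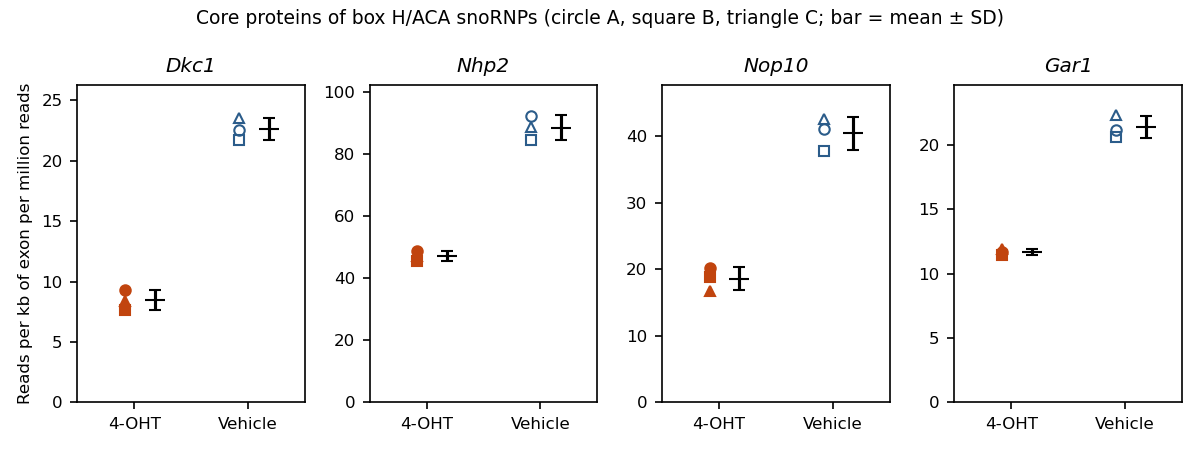
Levels per length (RPKM) of the 4 core proteins of box H/ACA snoRNPs, with each library as a symbol and the mean and SD of 3 libraries beside it. All axes start at 0. Dkc1 averaged 8.47 with 4-OHT and 22.6 with vehicle, and Gar1 11.7 with 4-OHT and 21.4 with vehicle. RPKM uses library totals, so these falls are larger than those on the deposited scaling.

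The promoter of Dkc1 is printed because this gene changed most. It runs from 250 bases before to 50 bases after the transcript start in RefSeq (GRCm38.p6, chrX:75095604-75095903, plus strand, 5′ to 3′). It held none of the 4 motifs searched, which are described with the other promoters.

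Dkc1: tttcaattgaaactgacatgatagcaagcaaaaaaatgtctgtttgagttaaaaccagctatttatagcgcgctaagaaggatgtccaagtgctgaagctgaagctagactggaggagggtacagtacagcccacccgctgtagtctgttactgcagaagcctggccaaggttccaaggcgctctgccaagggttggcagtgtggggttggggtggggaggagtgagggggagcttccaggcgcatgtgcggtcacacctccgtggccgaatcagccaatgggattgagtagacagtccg

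The small subunit processome was the role with exceptions. Of its 8 genes 6 fell and 2 were not called. Utp20, a scaffold protein of the particle, had 1123, 1094 and 1222 normalized counts with 4-OHT, against 1823, 1884 and 1801 with vehicle, a log2 fold change of -0.68. Wdr43, Wdr3, Wdr36 and Wdr75, which are WD-repeat proteins of its early subcomplexes, changed by -0.57, -0.54, -0.50 and -0.50. None of these 5 genes overlapped between groups.

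Utp15 had 896, 816 and 911 normalized counts with 4-OHT, against 794, 799 and 799 with vehicle. It was the one gene of the 35 whose 4-OHT values all lay above the vehicle values, with 4-OHT replicate B close to them. Utp15 (ENSMUSG00000041747.2, chromosome 13, 98246845 to 98262992) changed by 0.13 ± 0.06 (SE, limma adjusted p = 0.0627). The call depended on the setting: it was higher by edgeR (adjusted p = 0.0367), higher without 4-OHT replicate B (limma adjusted p = 0.0187) and lower, at -0.17, after total-count scaling (limma adjusted p = 0.032).

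Heatr1 (ENSMUSG00000050244.8, chromosome 13, 12395398 to 12438677), a large repeat protein, had 1621, 1720.3 and 1679.7 normalized counts with 4-OHT, against 1707, 1734 and 1685 with vehicle. The groups overlapped, at a log2 fold change of -0.03 ± 0.05 (SE, limma adjusted p = 0.591). After total-count scaling it was lower at -0.34, close to the all-gene median of -0.32 on that scaling. Nop14, an assembly factor of the particle and the most abundant of this role per length (ENSMUSG00000036693.12, chromosome 5, 34638536 to 34660148), had 1104, 1063 and 1244 normalized counts with 4-OHT, against 1241, 1314 and 1406 with vehicle. In Nop14 1 pair of values crossed, and its log2 fold change of -0.22 ± 0.07 (SE, limma adjusted p = 0.0163) lost the call without 4-OHT replicate B (adjusted p = 0.0762) or vehicle replicate C (0.0775).

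Relative to the median of the 35 genes within each sample, Utp15 was 0.53 and Heatr1 0.37 higher with 4-OHT on the log2 scale, both with an exact two-sided permutation p = 0.1, the smallest possible. The same p was reached by 19 of the 35 genes. Of these, 16 were lower and 3 higher relative to that median (the third was Nop14). This p therefore does not set Utp15, Heatr1 or Dkc1 apart, and they were picked by their change in these same data. The split may differ with another centre, as the mean in place of the median shifts the ratios of all 35 genes by the same amount. Utp15, Heatr1, Wdr43 and Wdr75 belong to the same subcomplex, UtpA, which in yeast joins the ribosomal RNA precursor first. Its other subunits on the lists, chosen after values were seen, were Utp4 at 0.16 (limma adjusted p = 0.0122) and Nol11 at -0.32 (limma adjusted p = 0.000174). UtpA thus had 3 genes lower and 1 higher of 6, with a median of -0.17. The next subcomplex, UtpB, had 6 lower of 6, with a median of -0.44. After total-count scaling all 6 genes of UtpA and all 6 of UtpB were lower, as were 55.4% of all genes. That scaling shifts these genes by nearly the same amount, so it leaves the gap between the subcomplexes in place. Utp15 at -0.17 and Utp4 at -0.15 then lay above the all-gene median of -0.32. Utp4 had 1297, 1276 and 1334 normalized counts with 4-OHT, against 1185, 1152 and 1164 with vehicle, but was lower, at -0.15, after total-count scaling. The difference between the subcomplexes was not tested.

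Promoter sequence of Utp15 is shown beside that of Dkc1 as the other end of the range (RefSeq, GRCm38.p6, chr13:98262943-98263242, minus strand, 5′ to 3′). Capitals mark GC boxes (GGGCGG, on either strand), the only one of the 4 motifs it held.

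Utp15: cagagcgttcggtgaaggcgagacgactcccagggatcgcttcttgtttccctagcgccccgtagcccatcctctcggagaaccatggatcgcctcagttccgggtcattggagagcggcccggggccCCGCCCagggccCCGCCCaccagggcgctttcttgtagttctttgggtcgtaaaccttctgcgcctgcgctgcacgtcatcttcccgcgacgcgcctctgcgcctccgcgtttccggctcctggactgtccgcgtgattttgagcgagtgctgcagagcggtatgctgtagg

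Across the other 35 processome genes, 24 fell, 4 rose and 7 were not called, with a median of -0.33. After total-count scaling 32 were lower and 1 higher. Imp3, a U3 particle protein, was lowest at -0.98, with 282, 285 and 333 normalized counts with 4-OHT, against 605, 583 and 580.3 with vehicle. Nol10, a nucleolar WD-repeat protein, was highest at 1.15, with 1638, 1511 and 1365 with 4-OHT, against 680.2, 668 and 672 with vehicle. Nol10 stayed higher after total-count scaling, at 0.85, and was the 1 higher gene there.

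Late small subunit factors fell in all 4 cases, with a median of -0.47. Rrp12, needed for export of the small subunit, had 569.7, 578 and 576 normalized counts with 4-OHT, against 792, 863 and 791 with vehicle (log2 fold change -0.50). Ltv1, an export and assembly factor, had 646, 665 and 757 with 4-OHT, against 783, 860.4 and 786 with vehicle. The highest 4-OHT value of Ltv1 was just under the lowest vehicle value, and its change of -0.23 (limma adjusted p = 0.0126) lost the call without 4-OHT replicate B (adjusted p = 0.0514) or vehicle replicate B (0.0676). Nob1, the nuclease that makes the final cut of 18S ribosomal RNA, and Tsr1, a GTPase-like assembly factor, changed by -0.50 and -0.44. The 7 further late small subunit genes were lower in 4 cases, higher in 1 and not called in 2. Tsr2 was lowest at -0.74, and the kinase Riok1 highest at 0.24 but not called after total-count scaling (-0.07).

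Large subunit factors fell in all 7 cases, with a median of -0.61. Rrp1b, a nucleolar protein that also acts in transcription, had 326, 356 and 338 normalized counts with 4-OHT, against 691, 597 and 598 with vehicle. Rrp1b (ENSMUSG00000058392.12, chromosome 17, 32036100 to 32062865) changed by -0.88 ± 0.07 (SE, limma adjusted p = 1.25e-06), the second lowest of the 35. Bop1, Pes1 and Wdr12 form the PeBoW complex, which processes the large subunit precursor. Bop1 had 1023, 914 and 929 with 4-OHT, against 1206, 1288 and 1166 with vehicle. Pes1 had 1509.9, 1458 and 1583 with 4-OHT, against 2015, 2052 and 2134 with vehicle. Neither overlapped between groups. On the log2 scale Wdr12 changed by -0.70, Pes1 by -0.45 and Bop1 by -0.35, and the differences between them were not tested. The methyltransferase Nop2, the assembly factor Rrs1 and the GTPase Gnl3, called nucleostemin, changed by -0.61, -0.42 and -0.62.

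Among the 44 other large subunit genes 32 fell, 3 rose and 9 were not called, with a median of -0.29, and 40 were lower and 1 higher after total-count scaling. Ppan, the mouse homologue of the fly gene peter pan, was lowest at -0.85. Rrp1, a paralogue of Rrp1b, was highest at 0.54, with 2808, 2749 and 2828 normalized counts with 4-OHT, against 1982, 1915 and 1879 with vehicle. Rrp1 stayed higher after total-count scaling at 0.23 (limma adjusted p = 0.00246), so this pair of related genes changed in opposite directions under both scalings. Of 14 exosome and decay genes tested 9 fell, with Exosc7 lowest at -0.76, and 5 were not called, with Xrn2 highest at 0.09 (limma adjusted p = 0.13). After total-count scaling all 14 were lower.

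Together, the 124 biogenesis genes outside the list were 83 lower, 12 higher and 29 not called, and 111 lower, 4 higher and 9 not called after total-count scaling. Their median on the deposited scaling was -0.31, where that of the 35 genes was -0.54. Cytosolic ribosomal protein genes were lower in 66 of 81 tested and not called in 15 (median -0.44), and mitochondrial ribosomal protein genes lower in 61 of 77 and not called in 16 (median -0.32). Differences between these lists were not tested. Counts of cytosolic ribosomal proteins were low for such genes, at 0.868% to 1.53% of all reads, and 7 of the 85 had under 50 reads in every library. How reads that fit several places were assigned is not given in the sources used here, so levels of genes with close copies elsewhere are uncertain. In these lists Rps23 was lowest at -1.04 and Rps27 highest at 0.40 (limma adjusted p = 0.0747), both with few reads, and Mrpl36 and Mrpl39 were at -0.83 and 0.05.

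**Figure D4:**
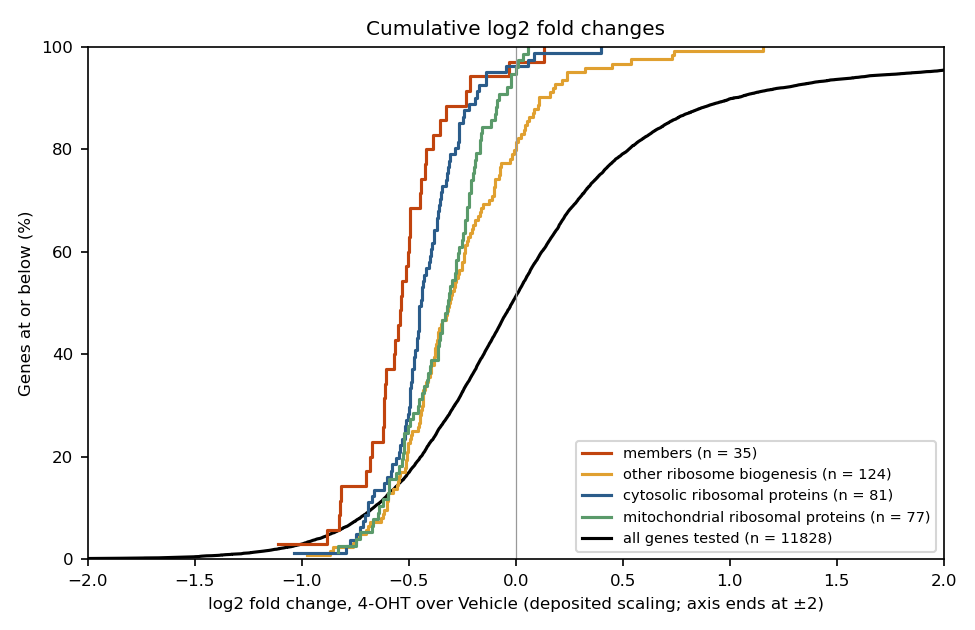
Share of genes, in percent, at or below each log2 fold change of 4-OHT over vehicle on the deposited scaling, for the 35 genes, 124 other biogenesis genes, 81 cytosolic and 77 mitochondrial ribosomal protein genes and all 11828 genes tested. At the median the curve of the 35 genes lies furthest left, with medians of -0.54, -0.31, -0.44, -0.32 and -0.02 in that order.

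Across the 35 genes, which are not independent replicates and share libraries, Spearman's rho between vehicle level per length and log2 fold change was 0.144, and -0.063 with exon length. Per length, the genes ranked from the 35.3 to the 99.1 percentile of all genes tested, with a median at 78.03. The median over the 35 genes of the SD between replicates on the log2 scale was 0.06 with 4-OHT and 0.05 with vehicle. Replicate B gave the lowest 4-OHT value in 19 of the 35 genes, replicate A in 10 and replicate C in 6.

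Several of these genes carry snoRNA genes within their introns or bounds. Of 1559 snoRNA and scaRNA genes in the table, 21 lay inside 7 of the 35 genes: 5 in Nop56, 4 in Nop58, 3 each in Ncl, Gnl3 and Wdr43, 2 in Tsr1 and 1 in Dkc1. They had 74 reads over the 4-OHT libraries and 136 over the vehicle libraries, at most 15 in a library. Whether counting used strand is not given in the sources used here, and these were messenger RNA libraries, so the counts are no measure of mature snoRNAs. The 13 tested transcripts that host snoRNAs without a known protein were lower in 10 cases and not called in 3, with a median of -0.60. Epb41l4aos was lowest at -1.04, and Snhg8 was highest at 0.18 (limma adjusted p = 0.0994). Close neighbours overlap some of the 35 genes, with Mroh1 at Bop1, Mpp1 at Dkc1, Idh3b at Nop56 and Parp3 at Rrp9 each holding more reads over the 6 libraries than the gene it overlaps.

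Promoters of 29 of the 35 genes were in the RefSeq set (GRCm38.p6). Some genes, 2 of the 29 among them, had several windows of 300 bases and counted if any window held a motif. Searched on both strands, CACGTG, the E-box bound by MYC and related factors, stood in 7 of the 29 (24.1%). It stood in 12.2% of 8787 tested genes and 8.09% of all 27025 genes with a promoter. The ETS motif CCGGAAGT was in 7 of 29 (24.1%), against 10.1% of tested genes. The motif GCATGCGC, of the type bound by NRF1, was in 1 of 29 (3.45%), against 6.34%. The GC box GGGCGG was in 21 of 29 (72.4%), against 68.9%. Matches of different motifs shared a base in 1 of the 29 genes. Among tested genes the E-box share was 11.9% in those lower and 12.7% in those higher with 4-OHT. Members with an E-box had a median log2 fold change of -0.52 and members without one -0.55. A match is a description and not evidence of binding.

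The 7 E-box sites are printed to show where they lie, each in a 30-base stretch with the E-box in capitals (RefSeq, GRCm38.p6, each on the strand of its gene, 5′ to 3′). They stand at chr6:125131811-125131840 (Nop2, plus), chr10:13193092-13193121 (Ltv1, minus), chr10:88826765-88826794 (Utp20, minus), chr11:3963965-3963994 (Pes1, plus), chr11:72441347-72441376 (Mybbp1a, plus), chr11:74898092-74898121 (Tsr1, plus) and chr17:71616220-71616249 (Wdr43, plus).
Nop2: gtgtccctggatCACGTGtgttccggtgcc
Ltv1: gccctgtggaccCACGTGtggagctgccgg
Utp20: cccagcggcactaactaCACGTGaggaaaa
Pes1: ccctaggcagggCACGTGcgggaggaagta
Mybbp1a: aagtgactgtcttctgagccCACGTGtttg
Tsr1: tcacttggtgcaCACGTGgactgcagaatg
Wdr43: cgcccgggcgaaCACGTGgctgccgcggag
In Nop2 the E-box began 60 bases before the transcript start, at -60, and in the other 6 genes it lay 3 to 41 bases after it. All 7 genes fell, by between -0.68 for Utp20 and -0.23 for Ltv1 on the log2 scale.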

How the data were processed

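RNA was measured in 6 libraries of RAW264.7 cells, 3 given 4-OHT and 3 given vehicle. Per the submitters' processing notes, the builds were GRCm38 and mm10 and the tools included STAR 2.5.1b, Trimmomatic 0.35, bcl2fastq 2.20, DESeq2 1.18.1 and RSEM. Their roles, the annotation and the handling of strand and of reads that fit several genes are not given in the sources used here. The deposited signal per gene and library is a count divided by a size factor, since every positive value was a whole multiple of 1 step per library (100% within 1e-06). Dividing by that step gave whole reads, used for depth and for the count models. On those reads edgeR called 3734 genes lower and 3997 higher. The step of vehicle replicate B, 0.989, is close to 1, so edgeR was also run without it. The log2 fold change and p-value columns in the deposited table are the authors', per the file headers, and were used only as a check: 33 of the 35 genes have an adjusted p under 0.05 there, all lower.

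Genes passing edgeR 4.0.16 filterByExpr (minimum count 10), 11828 in all, were tested with limma 3.58.1 in R 4.3.3 with a mean-variance trend on log2(value + 1), group as the only term, two-sided, with Benjamini-Hochberg adjustment over all genes and a threshold of 0.05. All 35 genes passed the filter. Levels per length (RPKM) use recovered reads, library totals and exon lengths of GENCODE M21. These lengths depend on the transcripts annotated for each gene, so ranks between genes per length do too. Coordinates come from the deposited table, and GENCODE M21 has 27 of the 35 genes at identical positions. Alternatives were total-count and TMM scaling, pseudocounts of 0.5 and 5, no filter, edgeR, DESeq2 1.42.0, a replicate block and leaving out each sample. Limma and edgeR were run on simulated data in which few genes changed, equally many up and down. That setting is unlike these data, so it is no check on the scaling. The genes, role groups, lists and tests were chosen with earlier results of these data known. The members given sample by sample are, by role, those with the largest and smallest change and the highest level, and all not called. Of each other gene list with genes tested and reported, the lowest and highest gene are named. The result of 1 further list of cell type markers is not reported here.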

Additional observations from a re-analysis of the deposited data

How the results depend on the processing

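The number of lower genes among the 35 was 33 and lay between 31 and 35 over 15 alternatives, and 31 genes were lower in all 15 and as reported. The median change was -0.54, from -0.55 to -0.52 when single samples were left out, and -0.84 after total-count scaling. Total-count scaling also gave 6549 genes lower and 2259 higher over all genes, against 3848 and 3902, and left 0 of the 35 uncalled, with Utp15 turned to -0.17. Of the 35 genes 1 was higher and 1 not called with TMM scaling and with edgeR. When single samples were left out, 0 or 1 was higher and 2 or 3 not called. With a replicate block the counts of the 35 were the same as without it (33 lower, 2 not called, median -0.54), and over all genes 3968 were lower and 4004 higher. Deviations of same-letter samples from their group means correlated at 0.11 (A), 0.036 (B) and 0.12 (C), so the letters were not taken as pairs, although each sample correlated best with its own letter, a hint from the data and not from the design. The share of reads, 0.566 times vehicle, was 0.555 to 0.580 when single samples were left out and 0.583 without the 10 most abundant genes. Nop14 lost its call in 2 alternatives and Ltv1 in 3, edgeR without vehicle replicate B, added after seeing the data, among them (Ltv1 adjusted p = 0.0723). With the mean in place of the median gene as centre, the ratios of all 35 genes shifted by the same amount. The median rests on a single gene per sample. With 3 samples a group, exact permutation cannot go below p = 0.1.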
